A study of Mus musculus with 10 samples.

Results

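The expression of 10 Wnt/β-catenin target and feedback genes (Axin2, Lef1, Tcf7, Nkd1, Apcdd1, Rnf43, Znrf3, Sp5, Cd44 and Fgf18) was examined in mRNA libraries labelled as primary cortical endothelial cells (ECs) of the mouse. The members were taken by gene symbol, and all 10 were found among the 21612 genes with a symbol in the table. The study asked how Wnt activity, which is needed to build the blood-brain barrier (BBB), is lowered in adult ECs, and whether an inhibitor of histone deacetylases (HDACs) brings its target genes back. All mice were wild type, and the 10 libraries fall into 4 groups. The E13.5 group (n = 3) came from embryos at the embryonic day the name gives and was labelled as control treated. Adult control ECs (n = 3) came from the cortex of adult mice, labelled only as control. The Wnt3a group (n = 2) held adult ECs given the ligand Wnt3a at 200 nM per the labels, while the study's methods give a mass per volume. The MS-275 group (n = 2) held adult ECs given MS-275 (entinostat), an inhibitor of class I HDACs, at 10 µM. According to the methods, cells pooled from a litter made a replicate, and cells of both ages were plated on collagen and expanded before use. Purity was checked by staining for CD31 and isolectin B4.

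In the Wnt/β-catenin pathway, a Wnt ligand binds a Frizzled receptor and an LRP co-receptor, which stops the destruction complex from degrading β-catenin. β-catenin then enters the nucleus and joins the DNA-binding factors of the TCF/LEF family to switch on target genes. Several targets are themselves inhibitors of the pathway, so that their mRNA rises with signalling and holds it back. In brain ECs the pathway drives vessel growth into the neural tissue and the onset of barrier properties, and its activity is known to decline after development.

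Start-site windows of 300 bases (250 before and 50 after the start, RefSeq, GRCm38.p6) were found for 8 members, with 13 windows in all. They were searched on both strands for CTTTGAA or CTTTGAT, the letters that TCF/LEF factors are known to favour. Of these 13 windows, 1 held a match, that of Sp5, a zinc-finger factor that is a known direct target. Over all 32851 windows of the same length, 8.65% held one. The Sp5 window (chr2:70474673-70474972, plus strand) is shown with the match in capitals, which begins 104 bases upstream of the start.
Sp5: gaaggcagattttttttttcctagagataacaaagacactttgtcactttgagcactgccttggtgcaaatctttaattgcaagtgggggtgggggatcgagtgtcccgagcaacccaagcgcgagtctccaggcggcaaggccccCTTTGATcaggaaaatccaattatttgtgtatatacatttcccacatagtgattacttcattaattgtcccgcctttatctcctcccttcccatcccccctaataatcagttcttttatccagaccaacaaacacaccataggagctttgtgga
The windows of Axin2, Fgf18 and Rnf43 are shown as examples of different CG content among the 4 members with windows that had at most 2 reads in adult control and were called higher with MS-275. The fourth, Lef1, has 4 windows with 5 to 21 CG, which are not printed. CG dinucleotides, the letters that DNA methylation acts on, are in capitals. The Axin2 window (chr11:108920099-108920398, plus strand) held 31 CG, a count reached by 10.6% of all windows, and the Fgf18 window (chr11:33147351-33147650, minus strand) held 47, reached by 1.44%. The upstream Rnf43 window (chr11:87662837-87663136, plus strand) held 10, reached by 43.5%.
Axin2: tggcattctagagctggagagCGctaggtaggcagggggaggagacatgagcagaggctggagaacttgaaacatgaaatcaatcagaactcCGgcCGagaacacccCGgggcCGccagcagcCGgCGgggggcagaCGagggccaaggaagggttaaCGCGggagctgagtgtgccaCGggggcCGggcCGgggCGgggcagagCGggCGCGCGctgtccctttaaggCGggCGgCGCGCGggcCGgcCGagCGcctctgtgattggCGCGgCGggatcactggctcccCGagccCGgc
Fgf18: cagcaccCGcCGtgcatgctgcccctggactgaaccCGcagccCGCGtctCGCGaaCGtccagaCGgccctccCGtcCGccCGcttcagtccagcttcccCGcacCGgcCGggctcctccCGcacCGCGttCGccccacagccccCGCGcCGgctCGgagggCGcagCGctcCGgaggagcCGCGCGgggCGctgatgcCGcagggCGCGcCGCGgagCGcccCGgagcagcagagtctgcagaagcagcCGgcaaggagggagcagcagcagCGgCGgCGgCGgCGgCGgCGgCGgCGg
Rnf43: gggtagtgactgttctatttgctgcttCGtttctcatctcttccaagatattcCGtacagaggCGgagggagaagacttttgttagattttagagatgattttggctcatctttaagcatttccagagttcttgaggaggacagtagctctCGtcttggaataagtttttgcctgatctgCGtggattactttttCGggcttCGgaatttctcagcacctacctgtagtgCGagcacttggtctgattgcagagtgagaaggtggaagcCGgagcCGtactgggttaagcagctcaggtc
No methylation was measured in these libraries.

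Library depth ran from 21171509 to 31810932 reads on genes. The E13.5 libraries went against their cell type label. The summed normalised count of 10 endothelial markers was 883 to 1391 in them and 239254 to 321625 in adult control, and Pecam1 (CD31) stood at 59.4 ± 12.9 (SD, n = 3) against 71699 ± 11642 (n = 3). Markers of other cells were abundant in the E13.5 libraries, with sums of 23829 to 33975 for neurons and neural progenitors and 16714 to 18400 for astrocytes and radial glia. Sums were 8168 to 21297 for fibroblasts and meninges and 30759 to 49901 for pericytes and smooth muscle. The last was mostly Acta2 (mean 24395) and Tagln (11685), while Pdgfrb had 469, Abcc9 1.21 and Kcnj8 no read. Several of the cell types named use Wnt signalling themselves, so each E13.5 value below is to be read with this marker content. What gave rise to it was not tested. In such bulk samples, fewer cells of a type and less RNA per cell cannot be told apart. The MS-275 libraries also had lower endothelial sums, 24303 to 33595, with 9 of the 10 markers called lower than in adult control.

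The adult libraries fell into 2 sets that the labels do not give, and a treated library was placed with the control it correlated with best across genes. Adult control 1 and 2 differed by a median of 0.105 on the log2 scale across genes, and adult control 3 and Wnt3a 2 by 0.111. Adult control 1 and 3 differed by 0.493, and the Wnt3a libraries by 0.430. Thus Wnt3a 2 stood as near to adult control 3 as replicates of a group stood to each other. The counts of adult control 3 and Wnt3a 2 nevertheless differed by more than sampling noise, with a mean chi-square of 9.67 per gene where 11.1 was found for adult control 1 and 2, so both were kept. MS-275 1 correlated best with adult control 1 (r = 0.904 across genes) and MS-275 2 with adult control 3 (r = 0.873), although MS-275 1 had its smallest median difference from adult control 3 (0.792).

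Values are normalised counts, which are gene counts divided by a size factor of the library, and 1 read was worth 0.795 to 1.389. Of the transcription factors, Lef1 and Tcf7 bind DNA for β-catenin and are also its targets. Tcf7 had 745, 1105 and 1146 normalised counts in the 3 E13.5 libraries, 6.94, 12.2 and 17.7 in adult control, 19.4 and 35.8 with Wnt3a, and 312 and 271 with MS-275. No group overlapped another, in the order E13.5, MS-275, Wnt3a and adult control. Lef1 had 215, 147 and 98.3 at E13.5, 0, 2.03 and 0 in adult control, 0 and 0 with Wnt3a, and 5.12 and 15.3 with MS-275. It was thus absent from all but 1 of the 5 control and Wnt3a libraries, and the MS-275 libraries, with 6 and 14 reads, lay between these and E13.5. Sp5 had 1.59, 3.47 and 0 at E13.5, 0, 0 and 1.97 in adult control, 2.78 and 0 with Wnt3a, and 3.41 and 4.37 with MS-275. No library held more than 4 reads of it, and it was not tested. With 8 reads with MS-275 and 2 in adult control, the ratio was 6.04 with a counting interval of 1.20 to 58.4. The interval leaves out the spread between libraries and takes each read as independent. Every Sp5 count was an even number of reads and the sequencing was paired-end, so reads may have been counted in pairs. That was not tested, and the interval may be too narrow.

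Of the intracellular inhibitors, Axin2 is a scaffold of the destruction complex and the most widely used readout of the pathway. Axin2 had 404, 253 and 249 normalised counts at E13.5, 0, 0 and 1.97 in adult control, 5.56 and 7.16 with Wnt3a, and 11.9 and 83.1 with MS-275. The 4 groups did not overlap, but the Wnt3a libraries rested on 4 and 6 reads, and the MS-275 libraries, with 14 and 76 reads, stood far apart. Nkd1, which binds Dishevelled and restrains the signal, had 176, 249 and 233 at E13.5 and 0 in each of the 3 control and both Wnt3a libraries. With MS-275 it had 1.71 and 0, which is 2 reads in 1 library, so Nkd1 was detected in quantity at E13.5 alone.

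At the membrane, Rnf43 and Znrf3 are ubiquitin ligases that remove Frizzled receptors from the cell surface, and Apcdd1 is a glycoprotein that blocks Wnt at the receptor. Rnf43 had 3.18, 10.4 and 9.54 at E13.5, 0 in all 3 adult controls, 2.78 and 0 with Wnt3a, and 18.8 and 36.1 with MS-275. Its highest level was that of the MS-275 group, above every E13.5 library. Its relative Znrf3 was expressed throughout, with 665, 741 and 761 at E13.5, 318, 295 and 349 in adult control, 300 and 369 with Wnt3a, and 490 and 498 with MS-275. The E13.5 and MS-275 libraries overlapped with no other group, while Wnt3a and control did overlap. Apcdd1 had 758, 168 and 158 at E13.5, 144, 103 and 247 in adult control, 217 and 217 with Wnt3a, and 572 and 1092 with MS-275. E13.5 1 stood apart from the other E13.5 libraries, which lay within the control range, and the same library had the highest sums of fibroblast and meningeal markers (21297 against 8290 and 8168) and of choroid plexus and other epithelial markers (563 against 109 and 121). Its endothelial sum (1391 against 883 and 945) and its pericyte and smooth muscle sum (49901 against 32307 and 30759) were also the highest. Its neural, microglial and lymphocyte sums were the lowest of the E13.5 libraries. The part of these cells in the Apcdd1 value was not tested.

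Of the outputs, Cd44 is a receptor for hyaluronan and Fgf18 a secreted growth factor. Cd44 had 10586, 6677 and 6696 at E13.5, 3099, 3264 and 2066 in adult control, 22977 and 2637 with Wnt3a, and 13113 and 4453 with MS-275. The libraries of each treatment thus stood far apart, and Wnt3a 2 lay inside the control range. Fgf18 had 46.9, 38.2 and 36.3 at E13.5, 0 in all 3 adult controls, 5.56 and 1.19 with Wnt3a, and 10.2 and 12.0 with MS-275. Again the groups did not overlap, although the Wnt3a values were 4 reads and 1 read.

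**Figure D1:**
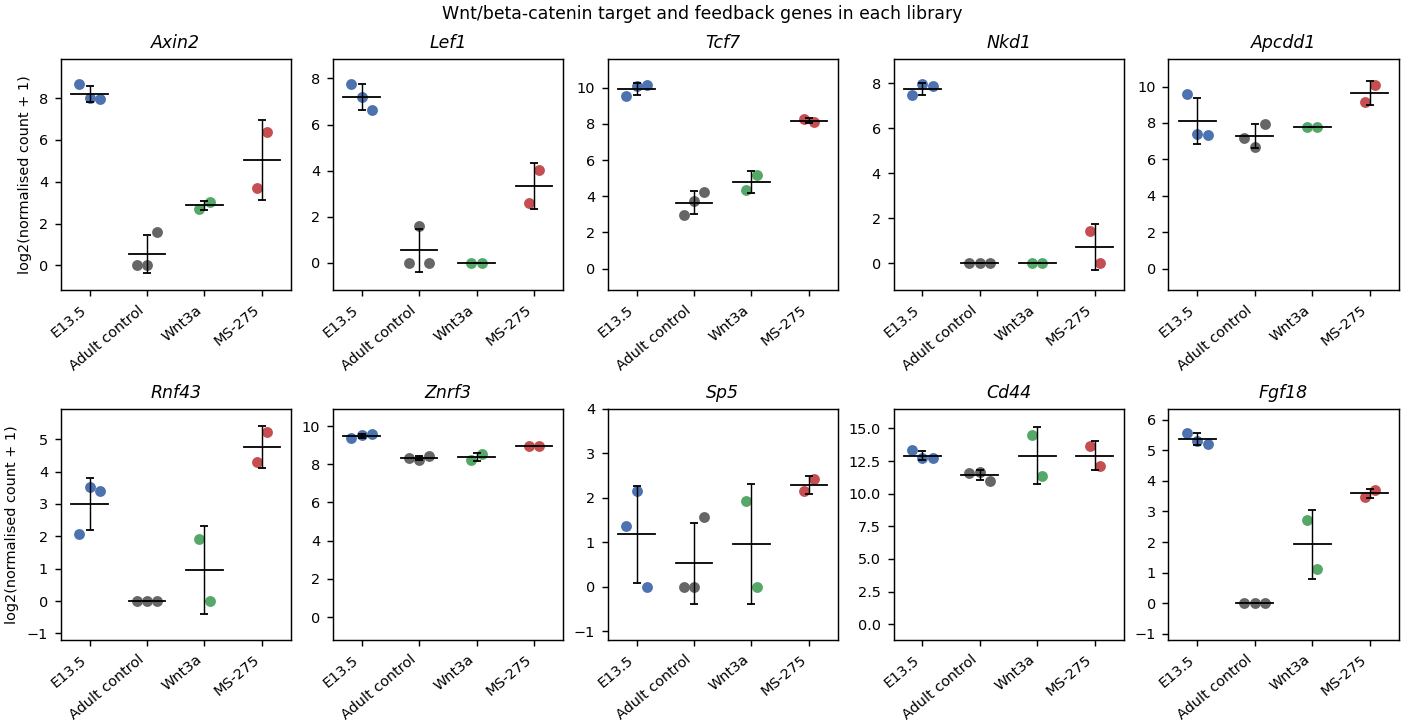
Each panel plots a gene, with log2(normalised count + 1) on the vertical axis and the 4 groups on the horizontal axis. Points are libraries, and the bar and whiskers give the mean and SD of the log2 values (n = 3, 3, 2 and 2). Axin2, Lef1, Tcf7, Nkd1 and Fgf18 are highest at E13.5 and lowest in adult control or Wnt3a, while Rnf43 is highest with MS-275. The vertical scales differ between panels, and no Sp5 value stands for more than 4 reads.

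The members are spread over 5 chromosomes, and 5 of the 10 lie on chromosome 11. On GRCm38 (mm10), with GENCODE M21 as the annotation, Axin2 lies at chr11:108920349-108950783, Rnf43 at chr11:87662722-87735539, Tcf7 at chr11:52252371-52283014, Fgf18 at chr11:33117430-33147400 and Znrf3 at chr11:5276324-5444847. Sp5 lies at chr2:70474923-70477729 and Cd44 at chr2:102811141-102901665. Lef1 lies at chr3:131110471-131224356, Nkd1 at chr8:88521354-88594884 and Apcdd1 at chr18:62922231-62961179. Annotated antisense genes overlap Axin2, Lef1 and Tcf7, and small nuclear RNA genes on the opposite strand overlap Rnf43 and Cd44. Other genes on the same strand overlap Lef1, Tcf7, Nkd1 and Rnf43. No source read here says if strand was used in counting, so reads of these members and of opposite-strand partners cannot be told apart. Same-strand partners cannot be separated by strand at all. Overlap was taken over whole gene spans.

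Per kilobase of exon (normalised count per kb of the union of annotated exons), Cd44 was the most abundant member in every group, with 415 ± 95.9 (SD, n = 3) in adult control. Znrf3 (40.6 ± 3.44), Apcdd1 (12.8 ± 5.79) and Tcf7 (4.68 ± 2.06) followed, and no other member reached 1 per kb in adult control. At E13.5 Tcf7 stood next to Cd44, with 380 ± 84.1 against 1179 ± 332 per kb, and Znrf3 had 91.5 ± 6.40. Axin2 (54.8 ± 16.0) and Nkd1 (48.1 ± 8.45) did not differ there beyond their spread. With MS-275, Tcf7 (111 ± 11.1, n = 2) was again next to Cd44 (1296 ± 904), and Apcdd1 (64.6 ± 28.5) and Znrf3 (62.6 ± 0.711) lay within their spread of each other.

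The tests were made with limma on log2(normalised count + 1) over 15211 genes, 9 members among them. A gene had to reach a normalised count of 10 in at least 2 libraries, which Sp5 did in none. Nkd1 passed this filter through the E13.5 libraries alone, Lef1 through E13.5 and a single MS-275 library, Axin2 and Fgf18 through E13.5 and MS-275, and Rnf43 through both MS-275 libraries and a single one of E13.5. For these 5 genes the choice to test is not independent of the differences found, and the counts of members called below carry this limit. A gene was called at a Benjamini-Hochberg adjusted p under 0.05 and an absolute log2 difference above 0.2, and adjusted p-values are limma's unless another tool is named. For genes with few reads this scale makes a change look smaller than it is.

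Between E13.5 and adult control, 7 of the 9 members tested were lower in adult ECs, namely Axin2, Lef1, Tcf7, Nkd1, Rnf43, Znrf3 and Fgf18, and none was called higher. Of all genes tested, 31.2% were called lower and 17.9% higher in adult control. The sign of that balance depended on the scaling, as quantile normalisation gave 4488 genes higher and 3571 lower in adult control where the main fit gave 2722 and 4740. The median member difference was −5.36 and the median of all genes −0.20 on the log2 scale. Tcf7 fell by 6.29 ± 0.41 (SE, adjusted p = 2.98e-06), from 998 ± 221 (SD, n = 3) to 12.3 ± 5.40 (n = 3) normalised counts, an 81.2-fold difference. Axin2, with 1061 reads at E13.5 and 2 in adult control, was 483-fold higher at E13.5 (95% counting interval 133 to 3994, adjusted p = 2.78e-05). For Lef1 the ratio was 248 (68.2 to 2051, adjusted p = 1.82e-05), from 544 and 2 reads. Nkd1 was at least 230-fold (adjusted p = 1.06e-06) and Fgf18 at least 42.5-fold (adjusted p = 1.13e-05) higher at E13.5, against a floor of 3 reads over the control group. These intervals and floors cover counting error only, with each read taken as independent. Counts of few reads were mostly even and the sequencing was paired-end, so they may understate that error.

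The ubiquitin ligases differed less. Znrf3 was 2.25-fold higher at E13.5 (722 ± 50.5 against 321 ± 27.2, adjusted p = 0.000582), and Rnf43 at least 8.10-fold higher from 26 reads (adjusted p = 0.00285), although its difference of −2.99 became 0.11 under quantile normalisation. Apcdd1 (362 ± 343 and 165 ± 74.6, adjusted p = 0.303) and Cd44 (7986 ± 2251 and 2810 ± 650, adjusted p = 0.115) were not called. The Cd44 groups did not overlap, and it was called by DESeq2 (adjusted p = 0.0446) and when only the 6 libraries compared were fitted (adjusted p = 0.00321). Markers of other cells moved with all these differences. Called higher at E13.5 were 12 of 12 neural, 7 of 7 astrocyte and radial glial and 6 of 7 fibroblast markers. So were 6 of 6 tested pericyte and smooth muscle markers, while Kcnj8 and Abcc9 of that list of 8 were too low to test. The part of these markers in the members' difference was not tested. Age and cell content cannot be told apart in this comparison.

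Wnt3a was added to ask whether the ligand raises its targets in adult ECs. No member was called against adult control, with 9 tested, and no gene at all was called (0% of those tested). At an unadjusted p under 0.05, limma gave 3 of the 9 members and 916 of all genes, edgeR 4 and 925, and DESeq2 4 and 1166, and neither of these other tools called a gene. The 3 members were Axin2, Tcf7 and Fgf18, which had both Wnt3a libraries above all 3 controls, as did 7.71% of all genes tested. Fgf18 had a log2 difference of 1.92 ± 0.49 (SE, unadjusted p = 0.0036, adjusted p = 0.752), with 5 reads with Wnt3a and none in control, which is at least 3.54-fold. Axin2 differed by 2.35 ± 0.81 (unadjusted p = 0.018, adjusted p = 0.752), a ratio of 10.1 with a counting interval of 2.16 to 94.9 from 10 and 2 reads. Tcf7 differed by 1.13 ± 0.46 (unadjusted p = 0.036, adjusted p = 0.752), at 27.6 ± 11.6 (n = 2) and 12.3 ± 5.40 (n = 3).

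Of the members not past that limit, Lef1 and Nkd1 had no read with Wnt3a, where 3 reads over the group would be a normalised count of 1.93. Rnf43 had 2 reads, in Wnt3a 1. Znrf3 differed by 0.06 ± 0.20 (adjusted p = 0.985), and its sign turned to −0.0027 without adult control 2. Apcdd1 differed by 0.49 ± 0.69 (adjusted p = 0.883). Cd44 differed by 1.5 ± 0.80 (adjusted p = 0.752), and this rested on Wnt3a 1, since without that library the difference was −0.06. Leaving out adult control 3 gave 579 called genes and leaving out Wnt3a 2 gave 74, with 0 members among them. Without Wnt3a 2, which stood with adult control 3, Fgf18 had an adjusted p of 0.0549 and Axin2 of 0.460, and without adult control 3 they had 0.0949 and 0.0852.

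Each Wnt3a library was therefore also set against the controls of its own set, a description of single libraries with no test. Wnt3a 1 differed from the mean of adult control 1 and 2 by 2.71 in Axin2, 1.00 in Tcf7, 2.71 in Fgf18, 2.85 in Cd44 and 0.83 in Apcdd1 on the log2 scale. Wnt3a 2 differed from adult control 3 by 1.46 in Axin2, 0.97 in Tcf7, 1.13 in Fgf18, 0.35 in Cd44 and −0.19 in Apcdd1. Axin2, Tcf7 and Fgf18 were thus above their nearest controls in both libraries, and Tcf7 by nearly the same amount, whereas the Cd44 difference was large in Wnt3a 1 only. Between Wnt3a 2 and adult control 3, however, Fgf18 had 1 read against none and Axin2 6 reads against 2. These are too few to show a rise in that library, and Tcf7 had 30 reads against 18. With the set as a term in a fit of the adult libraries, chosen after the data were seen, the differences were 2.09 in Axin2, 1.04 in Tcf7 and 1.99 in Fgf18, each with an adjusted p of 0.596. The neural marker sum was highest among adult libraries in Wnt3a 1 (12314), nearly all of it Nes (12252), while Sox2, Dcx, Neurod1, Neurod6, Stmn2 and Map2 had no read with Wnt3a. The fibroblast sum of 568 in this library, against 156 to 260 in control, was likewise mostly a single gene, Pdgfra (550). The part of Nes- or Pdgfra-expressing cells in its values was not tested.

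**Figure D2:**
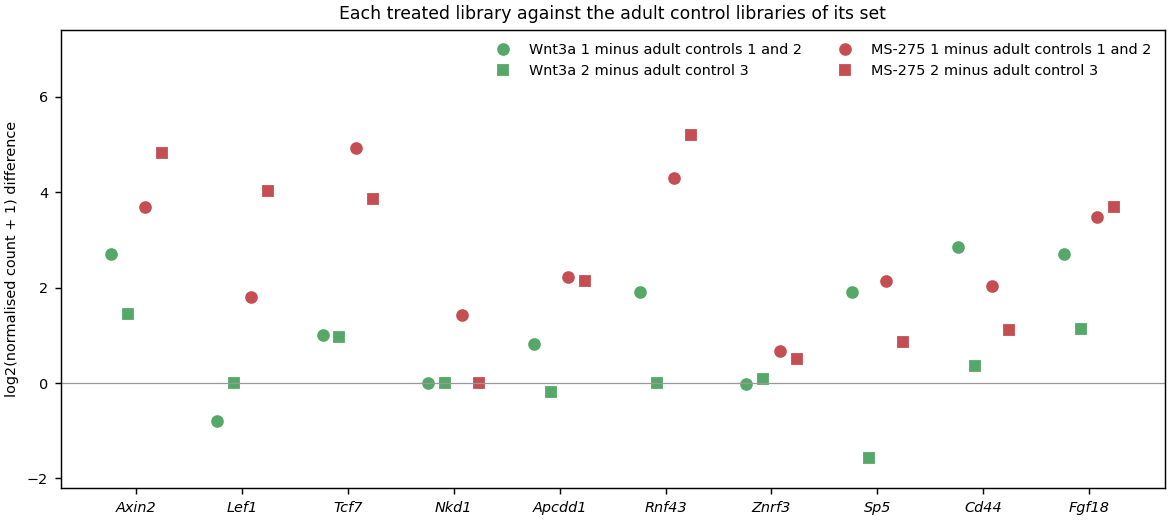
The vertical axis gives log2(normalised count + 1) in a treated library minus the mean of the adult control libraries of its set, and each gene has a position on the horizontal axis. Green stands for Wnt3a and red for MS-275, circles for library 1 of each (against adult control 1 and 2) and squares for library 2 (against adult control 3). Tcf7 sits near 1 in both Wnt3a libraries and near 4 to 5 with MS-275, and Cd44 separates Wnt3a 1 (2.85) from Wnt3a 2 (0.35).

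With MS-275, 7 of the 9 members tested were higher than in adult control, namely Axin2, Lef1, Tcf7, Apcdd1, Rnf43, Znrf3 and Fgf18, and none was lower. Of all genes tested, 21.8% were called higher and 17.4% lower. The median member difference was 2.79 and that of all genes 0.15 on the log2 scale. Tcf7 rose 23.7-fold (log2 difference 4.54 ± 0.46, adjusted p = 0.000244), to 292 ± 29.1 (n = 2) from 12.3 ± 5.40 (n = 3). Rnf43, which was tested only because of its level with MS-275, was at least 28.8-fold higher (log2 difference 4.76 ± 0.66, adjusted p = 0.000913), with 55 reads against none. Axin2 had a ratio of 67.9 (counting interval 18.3 to 569, log2 difference 4.52 ± 0.81, adjusted p = 0.00283), and Fgf18 rose at least 11.7-fold (log2 difference 3.6 ± 0.49, adjusted p = 0.000809). Lef1 had a ratio of 15.1 (3.67 to 133, adjusted p = 0.00998) from 20 and 2 reads, and this call was lost without MS-275 2 (adjusted p = 0.0853), with a pseudocount of 10 (0.0685) and under quantile normalisation (0.27).

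Apcdd1 rose 5.05-fold (832 ± 367 against 165 ± 74.6, adjusted p = 0.0249), a call that did not hold when MS-275 2 (adjusted p = 0.17), adult control 1 (0.0638) or adult control 2 (0.0732) was left out. Znrf3 was 1.54-fold higher (494 ± 5.61 against 321 ± 27.2, adjusted p = 0.0344), and its call was lost with edgeR (adjusted p = 0.0573), without either MS-275 library (0.0776 and 0.108) and without adult control 1 (0.0935) or 2 (0.102). Cd44 (8783 ± 6124, adjusted p = 0.179) and Nkd1 (2 reads, adjusted p = 0.255) were not called, and Nkd1 passed the threshold without MS-275 2 (adjusted p = 0.0409) on the 2 reads of MS-275 1. Each MS-275 library was also set against the controls of its own set, a description of single libraries with no test. In sets 1 and 2 the differences were 3.69 and 4.82 for Axin2, 1.81 and 4.03 for Lef1, 4.94 and 3.86 for Tcf7 and 2.23 and 2.14 for Apcdd1 on the log2 scale. Nkd1 was equal to its control in MS-275 2. The endothelial sums moved with this comparison, and so did the number of genes with a read, 15823 to 16428 with MS-275 against 13948 to 14556 in adult control. Some markers of other cells were also called higher. These were 4 of 12 neuronal and neural progenitor markers (sums of 2794 to 5389 against 1832 to 4841, mostly Nes in both), 3 of 7 astrocyte and radial glial markers (64.5 to 78.5 against 0 to 5.92), 3 of 7 fibroblast and meningeal markers (929 to 1298 against 156 to 260) and 2 of 6 pericyte markers tested (248 to 372 against 85.0 to 102), while Sox2, Dcx, Neurod1 and Neurod6 had no read in either group. Their part in the members' rise was not tested.

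Set against Wnt3a, MS-275 gave higher levels of Lef1, Tcf7, Rnf43 and Fgf18, 4 of the 9 members tested, where 16.1% of all genes were called higher and 13.2% lower. Tcf7 was 10.6-fold higher (adjusted p = 0.00194), Lef1 at least 5.30-fold (adjusted p = 0.00961) and Rnf43 20.5-fold (counting interval 5.42 to 174, adjusted p = 0.00585). Fgf18 was 3.30-fold higher (adjusted p = 0.0445), a call lost with edgeR (adjusted p = 0.174) and DESeq2 (0.234) and without Wnt3a 2 (0.226), MS-275 1 (0.0795) or MS-275 2 (0.149). The Lef1 call was lost without MS-275 2 (adjusted p = 0.0656), and that of Rnf43 when only the 4 libraries compared were fitted (0.0771). Axin2 (7.47-fold, adjusted p = 0.0984), Apcdd1 (3.83-fold, adjusted p = 0.0962) and Znrf3 (1.48-fold, adjusted p = 0.0810) had higher means with MS-275 but were not called. Cd44 differed by −0.03 ± 0.88 on the log2 scale (adjusted p = 1.00) and by 1.53 without Wnt3a 1. Against Wnt3a, 8 of 10 endothelial markers were also called lower with MS-275, and 3 of 12 neural, 2 of 7 astrocyte, 2 of 7 fibroblast and 2 of 6 pericyte markers higher, and their part in the members' difference was not tested.

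Levels with MS-275 remained below those at E13.5 for 6 members, Axin2, Lef1, Tcf7, Nkd1, Znrf3 and Fgf18, where 31.1% of all genes were called lower and 21.1% higher. Quantile normalisation gave 4817 genes higher and 3775 lower with MS-275, against 3210 and 4735 in the main fit. Nkd1 was 227-fold lower (counting interval 62.6 to 1877, adjusted p = 6.80e-06), Lef1 15.1-fold (adjusted p = 0.0012), Axin2 6.36-fold (adjusted p = 0.0102), Fgf18 3.63-fold (adjusted p = 0.0146), Tcf7 3.42-fold (adjusted p = 0.0115) and Znrf3 1.46-fold (adjusted p = 0.0456). The Znrf3 call was lost with TMM factors (adjusted p = 0.0854) and edgeR (0.101), and without E13.5 2 (0.126), E13.5 3 (0.131), MS-275 1 (0.111) or MS-275 2 (0.106). Without MS-275 1 the calls of Axin2 (adjusted p = 0.0727) and Fgf18 (0.0595) were lost as well, which left 3 members, and without MS-275 2 that of Tcf7 (0.0623). Rnf43 was 3.56-fold higher with MS-275 than at E13.5 (adjusted p = 0.0507) and Apcdd1 2.30-fold (adjusted p = 0.0903). Neither was called, and Apcdd1 was called (adjusted p = 0.00726) without E13.5 1. Cd44 differed by −0.03 ± 0.80 (adjusted p = 0.979), and its sign was not stable, for instance 0.24 with edgeR. The comparisons share groups, so they are not independent of each other. Here too the marker sums of other cells differ between the groups, and their part was not tested.

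**Figure D3:**
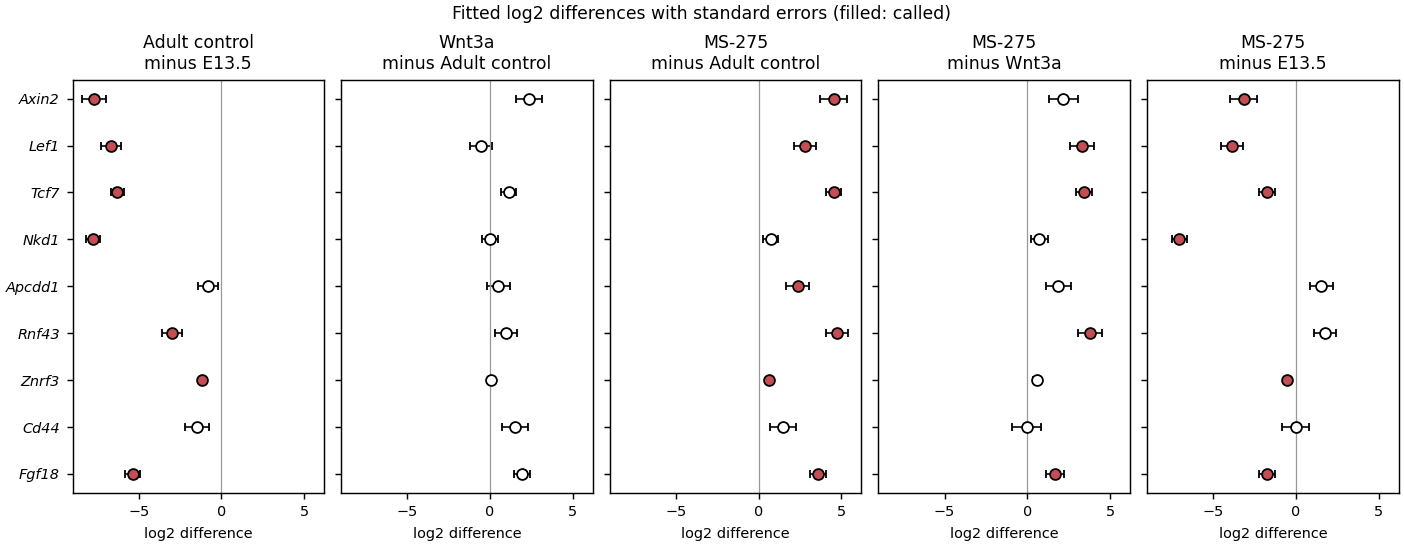
Each panel is a comparison, with the fitted log2 difference (first group minus second) on the horizontal axis and the 9 members tested on the vertical axis. Points are fitted differences, whiskers their standard errors, and filled points were called. From left to right, 7, 0, 7, 4 and 6 members are filled, and Cd44 is open in every panel.

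The group means can be put in order for each member. Tcf7 and Fgf18 ran E13.5, MS-275, Wnt3a and adult control, and only the last neighbours, Wnt3a and control, were not called apart. Axin2 had the same order, but neither MS-275 and Wnt3a nor Wnt3a and control were called apart. For Lef1 the order was E13.5, MS-275, and then adult control and Wnt3a, both at or under the floor of 3 reads. Nkd1 was high at E13.5 and at or under the floor in the other groups. Znrf3 ran E13.5, MS-275, Wnt3a and adult control, with only E13.5 and MS-275 called apart among neighbours. Rnf43 ran MS-275, E13.5, Wnt3a and adult control, with MS-275 and E13.5 not called apart and E13.5 and Wnt3a not compared. Apcdd1 was highest with MS-275, and the place of E13.5 above Wnt3a rested on E13.5 1, since the other E13.5 libraries lay below both Wnt3a libraries and the difference of adult control from E13.5 went from −0.82 to −0.082 without it. Cd44 was lowest in adult control, and no order is given for its other groups, as the Wnt3a mean rested on Wnt3a 1 and the fitted differences among them were near 0 (−0.03 for MS-275 against either).

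Likeness of pattern was measured as the root mean square (RMS) difference of centred log2 values over the 10 libraries, which fall into few clusters, so it is a description only. The genes nearest to Axin2 were Pde5a (0.61), Cntnap2 (0.66) and Tmeff1 (0.74), all highest at E13.5. Those nearest to Lef1 were Ppp1r3c (0.39), Pcsk5 (0.54) and Pygl (0.57), and those nearest to Tcf7 were B4galnt4 (0.45), Ckmt1 (0.46) and Rasgrp1 (0.56). Nkd1 had the closest neighbours of these 4, Elovl2 (0.079), Btbd17 (0.092) and Dok6 (0.13), each with a mean of 0 in adult control. Fgf18 was nearest to Rgs16 (0.45), Inava (0.46) and Thbs1 (0.50), Rnf43 to Ppm1e (0.46), Hcn2 (0.50) and Gadd45b (0.52), and Apcdd1 to Aph1b (0.47), Suox (0.47) and Ly75 (0.49). Znrf3 was nearest to Arsk (0.11), Ahcyl1 (0.12) and Fech (0.13), and Cd44 to Rab7b (0.35), Bnip3 (0.42) and Hist2h3c2 (0.44). The members did not share a single pattern, as the smallest difference between any 2 of them was 0.95, between Tcf7 and Fgf18, and 124 other genes were closer to Tcf7 than that.

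The rest of the pathway was read from 7 lists, whose counts stand against 31.2% lower and 17.9% higher of all genes in adult control compared with E13.5. List genes with few or no reads in adult control passed the filter through other groups. For these the choice to test is not independent of the differences found, and the list counts carry this limit. Of 29 other Wnt/β-catenin targets tested, 17 were called lower and 1 higher in adult control than at E13.5, with a median of −3.35. Prox1, a transcription factor of lymphatic ECs and neural progenitors, had 2 reads in adult control and 716 ± 248 normalised counts at E13.5, and Twist1 and Foxq1 had no read in adult control against 401 ± 310 and 140 ± 48.6 at E13.5 (adjusted p = 3.22e-06, 1.84e-06 and 3.01e-06). With MS-275, 7 of these 29 targets were called higher and 6 lower than in adult control, shares near those of all genes (21.8% and 17.4%), with a median of 0.84. The guidance receptor Ephb2 rose to 406 ± 197 from 5.29 ± 3.00 (adjusted p = 0.00112) and the secreted Wnt inhibitor Wif1 to 64.7 ± 16.7 from no read (adjusted p = 0.000243). Fst, follistatin, fell to 201 ± 125 from 9949 ± 2610 (adjusted p = 6.03e-05). Against Wnt3a, 7 of the 29 were higher and 5 lower with MS-275 (all genes 16.1% and 13.2%), and against E13.5, 3 were higher and 16 lower (all genes 21.1% and 31.1%).

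Ligands and secreted inhibitors were mostly lower in adult control than at E13.5, 14 of 15 ligands and 7 of 9 inhibitors tested. The ligands Wnt3 (45.1 ± 9.80 at E13.5), Ndp (279 ± 50.1) and Wnt11 (37.1 ± 11.0) had no read in adult control, nor had the inhibitors Sfrp1 (918 ± 155), Sfrp2 (148 ± 74.2) and Sfrp4 (14.6 ± 2.49). All of these named genes were tested through their E13.5 level alone, so the direction of their difference was set by the filter. With MS-275, 7 ligands were called higher and 2 lower than in adult control (all genes 21.8% and 17.4%). Wnt8b rose to 16.2 ± 5.97 from no read (adjusted p = 0.00336) and Wnt3 to 2.80 ± 0.87 on 6 reads (adjusted p = 0.0038), while Wnt5a, which often acts apart from β-catenin, fell to 115 ± 38.3 from 432 ± 38.8 (adjusted p = 0.00444). Of the inhibitors, Wif1 and Sfrp4 were called higher, 2 of 9, a share near that of all genes, and the Sfrp4 call rested on 6 reads. Wnt3 and Sfrp4 passed the filter through the E13.5 libraries alone, and Wnt8b through the MS-275 libraries alone. For Wnt8b the choice to test is thus not independent of the rise, and the count of ligands called higher carries this limit.

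On the receptor axis, 12 of 21 genes were lower and 3 higher in adult control than at E13.5. The receptor Fzd3 had 4294 ± 965 normalised counts at E13.5 and no read in any adult library, and Fzd10 had 86.0 ± 4.06 and Rspo2 26.2 ± 2.69 at E13.5 and likewise none. With MS-275, 6 of the 21 were higher and 5 lower than in adult control, where 21.8% and 17.4% of all genes were. Lgr4, a receptor for R-spondins, which hold Rnf43 and Znrf3 in check, rose to 429 ± 74.3 from 76.2 ± 12.5 (adjusted p = 0.00031). The co-receptors moved in opposite directions, Lrp6 to 8673 ± 2042 from 3670 ± 607 (adjusted p = 0.00203) and Lrp5 to 2904 ± 57.2 from 6383 ± 279 (adjusted p = 0.00389).

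Of 18 genes of the destruction complex and its transducers, 6 were lower and none higher in adult control than at E13.5, and 3 were higher and 1 lower with MS-275 than in adult control (all genes 21.8% and 17.4%). Apc2, a homologue of the scaffold Apc, had 8.43 ± 2.47 in adult control, 72.7 ± 3.87 with MS-275 (adjusted p = 0.00134) and 1525 ± 110 at E13.5. Of 19 TCF/LEF partners and co-regulators, 6 were lower and 3 higher in adult control than at E13.5, and with MS-275 7 were lower and 1 higher than in adult control (all genes 17.4% and 21.8%). Sox17, an endothelial transcription factor, had 1.74 ± 0.16 at E13.5, 2532 ± 226 in adult control and 75.9 ± 34.9 with MS-275 (adjusted p = 0.000586 against control). The co-repressors Tle3 (565 ± 326 against 2893 ± 621, adjusted p = 0.000796) and Ctbp1 (1528 ± 577 against 5898 ± 648, adjusted p = 0.000364) fell with MS-275.

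Of 17 genes of the FGF family and CD44 partners, 9 were lower and 1 higher in adult control than at E13.5, and 4 were higher and 3 lower with MS-275 than in adult control, again near the 21.8% and 17.4% of all genes. Fgfr3, a receptor for FGF18, rose to 103 ± 61.9 from 11.2 ± 5.74 with MS-275 (adjusted p = 0.00554) and stood at 1232 ± 370 at E13.5. Hyal2, a hyaluronidase, fell to 412 ± 183 from 3349 ± 1125 (adjusted p = 0.000436). With Wnt3a no gene of any list was called. Ctnnb1, which encodes β-catenin, had 25062 ± 6629 with Wnt3a and 55397 ± 18254 in adult control (unadjusted p = 0.0063, adjusted p = 0.752). The controls themselves differed by set, with 62278 and 69210 in adult control 1 and 2 and 34702 in adult control 3. Wnt3a 1 had 20375, and Wnt3a 2, of the set of adult control 3, had 29750. Lgr4 had 126 ± 20.7 and 76.2 ± 12.5 (unadjusted p = 0.026, adjusted p = 0.752), and Wnt7b no read and 8.77 ± 5.89 (unadjusted p = 0.0017, adjusted p = 0.752). Wnt7b also differed by set in control, with 12.1 and 12.2 in adult control 1 and 2 and 1.97 in adult control 3.

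**Figure D4:**
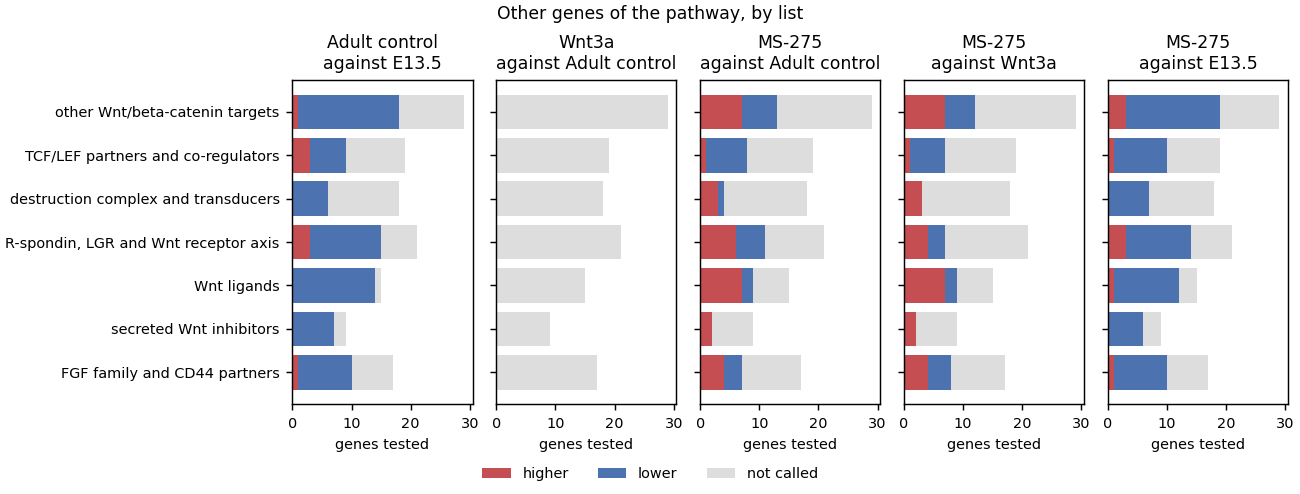
Each panel is a comparison, with the number of genes tested on the horizontal axis and 7 lists of pathway genes on the vertical axis. Red marks genes called higher in the group named in the upper line, blue genes called lower and grey genes not called. Of the Wnt ligands, 14 of 15 are lower in adult control than at E13.5, some of them tested through their E13.5 level alone. No gene of any list is called with Wnt3a.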

How the data were processed

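Poly(A)-selected mRNA libraries (KAPA mRNA HyperPrep) of 10 samples were compared in 4 groups taken from the titles. The authors aligned reads to mm10 with STAR. The submitters' processing notes list FastQC, cutadapt, featureCounts and DESeq2 as well, with no version given, whereas the methods of the paper count reads on protein-coding genes with in-house code. The deposited values are a linear signal, read counts per gene after division by the library's size factor. With the size factors recovered from the values, 100% of them came out as whole reads (tolerance 0.01 read), at 21171509 to 31810932 reads per library. Of 21638 lines, 26 held a date in place of a symbol and were left out (0.21% to 0.281% of a library's values). Genes with a normalised count of at least 10 in at least 2 libraries were tested with limma 3.58.1 (R 4.3.3) with an intensity trend on log2(value + 1), in a single fit of all 10 libraries, for 5 comparisons. Precision is limited by groups of 2 and 3 libraries. The p-values of this fit rest on the spread between libraries within groups, pooled over all 4 groups and moderated with the intensity trend. They do not rest on the spread of the 2 compared groups alone. Genes were called at adjusted p 0.05 with a minimum log2 difference of 0.2 either way, limits taken from the study's methods. The study's text names natural logs for its fold changes, whereas the limit was applied here on the log2 scale, where it is less strict. edgeR 4.0.16 and DESeq2 1.42.0 were run on the recovered reads as alternatives. Further alternatives changed the pseudocount (to 0.5 or 10) or the filter (none, or 50), or used the compared groups alone, TMM factors, quantile normalisation, the replicate number as a block, each library left out, and, added after the data were seen, the adult libraries alone with or without the library set as a term. The scripts were tested on simulated data. A floor of 3 reads over a group bounds folds against groups without reads, and counting intervals are 95% exact (Clopper-Pearson) intervals. Both take reads as independent, and whether both mates of a read pair were counted was not tested. Named genes were all members and, in each list and comparison, up to 3 called genes with the smallest p (with none called, the smallest unadjusted p), of which the text takes a part. The members and lists were chosen with earlier results of these data known. Positions and exon lengths came from GENCODE M21, start-site windows from RefSeq. Marker lists held 10 endothelial, 12 neuronal and neural progenitor, 7 astrocyte and radial glial, 7 fibroblast and meningeal, 8 pericyte and smooth muscle, 9 microglial, 10 lymphocyte and 6 epithelial genes.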

Additional observations from a re-analysis of the deposited data

How the results depend on the processing

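The counts of called members stayed within 1.5 times the main count except in 2 comparisons. For MS-275 against Wnt3a the main count of 4 became 2 with a pseudocount of 10, 2 with a filter of 50 (which left 7 members), 2 with quantile normalisation and 1 in a fit of these groups alone, and ran from 2 to 4 when a library was left out, with 2 without MS-275 2. For MS-275 against E13.5 the main count of 6 ran from 3 to 7 when a library was left out. With the replicate number as a block the counts were 7, 0, 6, 3 and 5 in the order of the report. The labels do not say that a number marks a shared litter, and deviations of same-numbered libraries correlated at 0.066, −0.003 and 0.019 between adult control and E13.5, at 0.448 and −0.452 between Wnt3a and adult control, 0.312 and −0.258 between MS-275 and adult control, 0.133 and 0.104 between MS-275 and E13.5, and 0.396 between MS-275 and Wnt3a (a single value, since groups of 2 give mirrored deviations). Signs that turned were those of Apcdd1 (0.094) and Rnf43 (0.11) for adult control against E13.5, of Nkd1 for MS-275 against adult control (−0.22) and against Wnt3a (−0.15) and of Cd44 for MS-275 against Wnt3a (0.14), all under quantile normalisation. Cd44 for MS-275 against E13.5 turned with TMM factors (0.064), edgeR (0.24) and DESeq2 (0.14), without E13.5 1 (0.19) and without MS-275 2 (0.75), and its lowest value was −0.81 without MS-275 1. Without a library, Cd44 turned for MS-275 against Wnt3a (1.53 without Wnt3a 1, 0.75 without MS-275 2 and −1.59 without Wnt3a 2) and for Wnt3a against adult control (−0.063 without Wnt3a 1 and 3.06 without Wnt3a 2), and Znrf3 for Wnt3a against adult control (−0.0027 without adult control 2, −0.092 and 0.20 without Wnt3a 2 and 1). The cause of these turns was not tested. Over all genes, MS-275 against Wnt3a gave 4454 calls, 1002 in a fit of these groups alone, 2322 without MS-275 2 and 2763 with the adult libraries alone, and MS-275 against adult control gave 5955 and 3505 without MS-275 2. TMM factors moved the median of all genes for adult control against E13.5 from −0.20 to −0.06, and quantile normalisation moved it to 0.12. Where a group was left with 1 library, that library was assumed to vary like the others. Members with at most 10 reads in a group are limited by depth there. These were Axin2, Fgf18, Rnf43 and Lef1 with Wnt3a and in control, Nkd1 in every group but E13.5, and Sp5 in every group.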
